A study of Homo sapiens with 28 samples.

Results

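Gene expression at time 96 after doxycycline was compared with expression at time 0 in SK-N-AS-tet cells carrying inducible MYCN, with 3 arrays at either time chosen by their titles, which makes 6 of the 28 arrays of the series. The parental SK-N-AS cells are a long-established human neuroblastoma line in which MYCN is not amplified. In the MYCN line (21 arrays, 7 times with 3 replicates each) doxycycline in the medium switches on a MYCN transgene. The mock line, SK-N-AS with the pcDNA6TR vector of the tet repressor, also received doxycycline and has 1 array per time, so its arrays of times 0 and 96 stand beside the comparison without a replicate. Both lines thus share the parental cells, the medium (DMEM with fetal calf serum) and exposure to doxycycline, and by the labels differ in the transgene. The labels give times without a unit, do not say whether either line is 1 clone, and do not say that replicates were separate cultures, so p-values measure the spread between these arrays, which may be technical.

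MYCN is a basic helix-loop-helix transcription factor that pairs with MAX and binds E-box sequences, of which CACGTG is the canonical form. Its amplification marks high-risk neuroblastoma, and its targets include genes of ribosome building, metabolism and cell growth. MXD proteins and MXI1 compete with it for MAX and repress such targets.

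By their markers the cells carried mesenchymal genes at high intensity and part of the noradrenergic genes at lower intensity. Of 9 mesenchymal markers 8 exceeded 12.8, the level of the filter on dim genes, on average at time 0, and their summed intensity was 9536 to 12736 on the 6 arrays, led by VIM, the intermediate filament vimentin, at 4772 to 6307, whereas NOTCH2 read 1.3 to 18.3. Of 7 noradrenergic markers 4 exceeded it, with a sum of 567 to 599.9. The transcription factors GATA3, ISL1 and GATA2 read 269.5 to 350.9, 104 to 182 and 76.2 to 176, while TH and DBH, the enzymes of noradrenaline synthesis, read at most 5.2. Of 5 epithelial markers the keratins KRT18 and KRT8 read 1955 to 3314 and 78.2 to 144 and EPCAM, KRT5 and CDH1 at most 5.0, for a sum of 2095 to 2753 at time 0 and 2528 to 3463 at time 96. None of the 4 Schwann cell markers exceeded the filter level, 1 of 4 endothelial markers did (PECAM1, 47.2 to 85.9), and 1 of 3 leukocyte markers. The mock line differed from the MYCN line before any induction: PHOX2A, a noradrenergic transcription factor, read 768 and 774 in mock at times 0 and 96 and at most 10.5 in the MYCN line, and that leukocyte marker, PTPRC, read 262 and 227 against 5.5 to 34.9. Spiked hybridisation control bioD read 1544 to 1719 on replicates 1 and 2 of both times and 2322 to 2529.9 on replicate 3 and both mock arrays, so both times held the same mixture. Deposited values are linear intensities with the same trimmed mean on every array, and changes below are log2 differences of intensity, time 96 minus time 0, with the standard error (SE) of the fit.

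Of 11865 genes tested, 2779 (23.4%) were called at a limma adjusted p under 0.05 (Benjamini-Hochberg), 1217 higher (10.3%) and 1562 lower (13.2%) at time 96. Falls were the larger changes. At least 2-fold changes were called for 621 genes (5.23%), 159 higher (1.34%) and 462 lower (3.89%), and at least 4-fold changes for 19 higher and 103 lower. The 3 arrays of time 96 lay wholly above or below those of time 0 for 4163 genes (35.1%). They did so for 1158 of the genes called higher and 1488 of those called lower, so non-overlap adds little to a call. The median change was 0.51 among genes called higher and -0.71 among those called lower. Mean intensity at time 96 was under 12.8, the level of the filter, in 97 of the genes called at least 2-fold lower. At time 0 it was under that level in 22 of the genes called at least 2-fold higher, so the size of these changes is imprecise. The count of 2779 calls became 1567 when arrays were set to equal medians and 1844 when probe sets ending in _s_at or _x_at were left out. It was 1449, 787 and 2794 without replicate 1, 2 and 3. Within replicates 1 and 2, which share the lower bioD signal, it was also 2794, and replicate 3 alone allows no test.

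MYCN itself rose most. Its intensity was 69.4, 79.2 and 103 at time 0 and 4023, 3574 and 3437 at time 96. The groups were far apart, a change of 5.47 (SE 0.17, adjusted p = 3.5e-14). In the mock line MYCN read 2.3 and 3.0. The array has 10 probe sets for MYCN, and the others read at most 15.4 in the MYCN line at both times, so leaving out probe sets ending in _s_at or _x_at, as the bright one does, gave -0.57.

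The partners and rivals of MYCN moved in both directions. MYC, the related factor, was 308, 131 and 223 at time 0 and 83.6, 52.7 and 25.7 at time 96. Every array of time 96 lay below every array of time 0, a change of -2.10 (SE 0.48, adjusted p = 0.0036), and mock arrays read 256 and 239.8. MXI1, which represses through MAX, went the other way with 346, 401 and 261 at time 0 and 761, 880.5 and 1213 at time 96, a change of 1.5 (SE 0.18, adjusted p = 1.0e-05). MXD3, a further repressor of the family, read 51.6, 68.2 and 82.6 at time 0 and 8.6, 15.3 and 11.1 at time 96, a change of -2.55 (SE 0.28, adjusted p = 3.7e-06). MXD1 fell by 1.0 (adjusted p = 0.0016) with 70.5, 68.9 and 68.3 at time 0 and 30.1, 31.1 and 44.0 at time 96, a call that ended without replicate 2 (-0.93) and with the mean of all probe sets (-0.76). MAX read 969, 956 and 886 at time 0 and 1131, 1233 and 1142 at time 96, a change of 0.32 (SE 0.07, adjusted p = 0.0029), but 0.06 without _s_at and _x_at probe sets, 0.16 with the mean of all, 0.35 with equal array medians and 0.29 without replicate 2, none of them called. In all, 5 of 10 tested members of the MYC network were called higher and 3 lower, 3 and 3 with equal array medians and 2 and 2 without replicate 2.

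Enzymes and transporters were among the largest increases. TKTL1, a transketolase-like protein, read 16.1, 13.8 and 11.6 at time 0 and 144, 139.8 and 101 at time 96, a change of 3.21 (SE 0.67, adjusted p = 0.002). GPAT3, which starts glycerolipid synthesis, read 9.4, 10.9 and 9.9 at time 0 and 84.7, 82.2 and 36.7 at time 96, a change of 2.66 (SE 0.60, adjusted p = 0.0033). SPHK1, the kinase that makes sphingosine 1-phosphate, read 43.6, 32.6 and 39.5 at time 0 and 236, 224 and 126 at time 96, a change of 2.30 (SE 0.35, adjusted p = 0.00011). Replicate 3 was the lowest of time 96 in each of these 3 genes, whose arrays did not overlap by the rule that chose them. The calls of TKTL1 (3.14) and GPAT3 (2.53) ended without replicate 2. Another 3, all amino acid carriers, stood among the 15 largest rises. SLC6A15, a carrier of neutral amino acids, read 58.8, 55.8 and 53.2 at time 0 and 279, 249.7 and 408 at time 96, a change of 2.45 (SE 0.17, adjusted p = 1.6e-08). SLC7A5, the light chain of the leucine transporter LAT1, read 121, 60.8 and 81.7 at time 0 and 405, 492 and 200 at time 96, a change of 2.02 (SE 0.31, adjusted p = 0.00012). SLC7A2, a carrier of cationic amino acids, read 78.6, 78.3 and 56.7 at time 0 and 294, 297 and 261 at time 96, a change of 2.01 (SE 0.15, adjusted p = 4.1e-08), while mock already stood at 264 and 360.2. The mock levels of the other two were under 100.

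Signalling and transcription genes were also among the 15 largest increases. DUSP5, a phosphatase that removes the activating phosphates of ERK, read 96.0, 87.3 and 72.4 at time 0 and 597, 662 and 246 at time 96, a change of 2.44 (SE 0.37, adjusted p = 9.8e-05). SIK1, a salt-inducible kinase, read 50.3, 34.6 and 38.2 at time 0 and 139, 177 and 138 at time 96, a change of 1.89 (SE 0.22, adjusted p = 5.7e-06), which was 0.67 and not called without _s_at and _x_at probe sets. HES6, a basic helix-loop-helix factor, read 11.7, 27.0 and 4.4 at time 0 and 37.9, 56.8 and 66.5 at time 96, a change of 2.23 (SE 0.55, adjusted p = 0.0065). Its call ended without replicate 3 (1.38), whose time 0 array was the dimmest. POLR3G, a subunit of RNA polymerase III, read 91.7, 77.3 and 67.4 at time 0 and 299, 301 and 291 at time 96, a change of 1.93 (SE 0.18, adjusted p = 6.0e-07). Among the least expressed, DDN, which encodes dendrin, read 5.2, 16.7 and 24.3 at time 0 and 53.2, 58.9 and 89.3 at time 96, a change of 2.35 (SE 0.54, adjusted p = 0.0036), and was no longer called without replicate 2 (2.62). ABCA17P, an ABC transporter pseudogene, read 20.3, 24.7 and 13.9 at time 0 and 144, 161 and 110.0 at time 96, a change of 2.84 (SE 0.26, adjusted p = 6.3e-07). Both were near background at time 0, as were TKTL1, GPAT3 and HES6, so the size of these rises is imprecise.

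**Figure D1:**
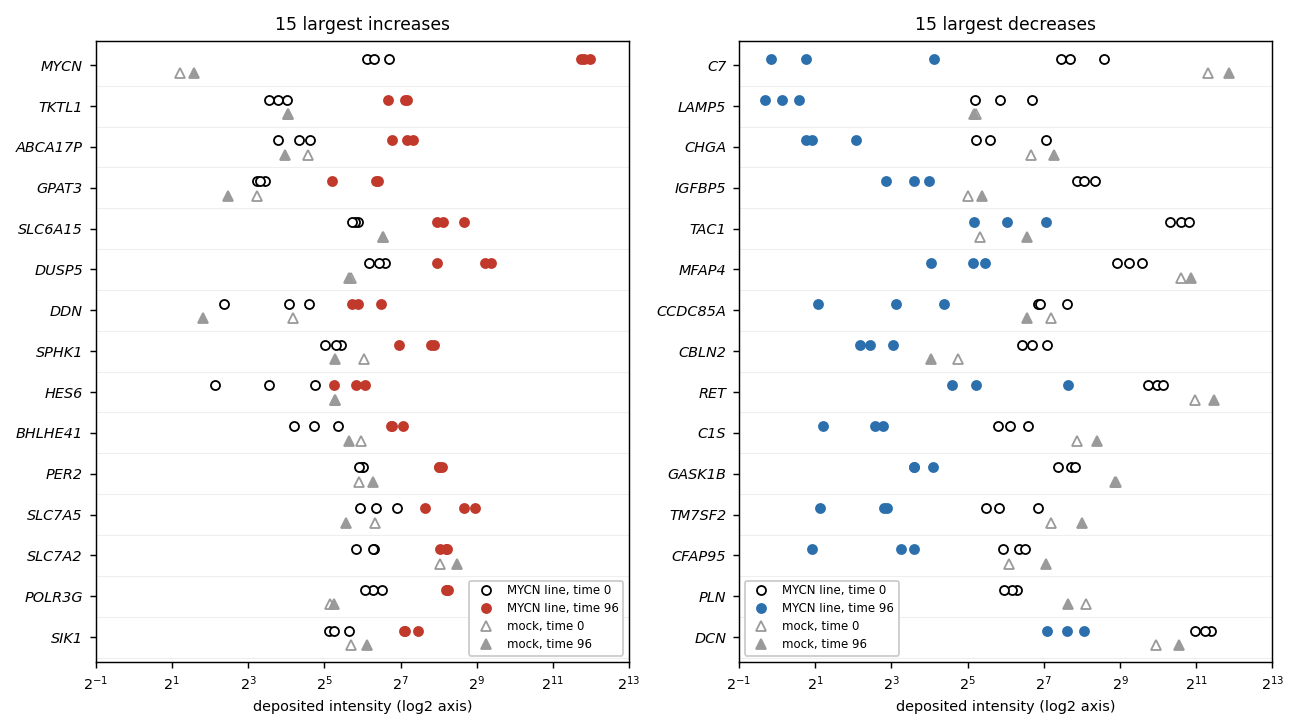
Deposited intensity (log2 axis) of the 15 genes with the largest called increase and the 15 with the largest called decrease at time 96 against time 0, each with non-overlapping arrays; circles are the 3 arrays of each time in the MYCN line and triangles the single mock arrays. MYCN stands at 3437 to 4023 at time 96, and C7 falls to 0.9 to 17.2 in the MYCN line while mock reads 2525 and 3718.

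Several of the 15 largest decreases were in secreted proteins. C7, a component of the membrane attack complex, read 175, 206 and 383 at time 0 and 0.9, 1.7 and 17.2 at time 96, a change of -6.33 (SE 1.03, adjusted p = 0.00021). IGFBP5, which binds insulin-like growth factors, read 233, 264 and 323 at time 0 and 12.1, 7.3 and 15.8 at time 96, a change of -4.60 (SE 0.46, adjusted p = 1.7e-06). TAC1, the precursor of substance P, read 1539, 1275 and 1811 at time 0 and 64.9, 35.9 and 133 at time 96, a change of -4.49 (SE 0.68, adjusted p = 0.00011). Their time 96 arrays lay far under those of time 0, while mock stood high for C7 (2525 and 3718) and low for TAC1 (40.3 and 94.5). MFAP4, a microfibril-associated protein, read 486, 606 and 762 at time 0 and 35.3, 16.5 and 43.6 at time 96, a change of -4.37 (SE 0.54, adjusted p = 1.6e-05). DCN, the matrix proteoglycan decorin, read 2010.5, 2699 and 2419 at time 0 and 196, 137 and 267 at time 96, a change of -3.61 (SE 0.39, adjusted p = 3.5e-06). CHGA, chromogranin A of secretory granules, read 48.1, 37.3 and 133 at time 0 and 4.2, 1.7 and 1.9 at time 96, a change of -4.70 (SE 1.06, adjusted p = 0.0033). The CHGA call ended without replicate 2 (-4.82).

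Others of the 15 were membrane or intracellular proteins. RET, the receptor of GDNF family ligands, read 853, 1011 and 1116 at time 0 and 37.2, 24.2 and 199.8 at time 96, a change of -4.13 (SE 0.77, adjusted p = 0.00071), with 1991 and 2809 in mock. Replicate 3 of time 96 read higher than the other two, and without replicate 2 the change was -3.50 and not called. LAMP5, a lysosome-associated membrane protein of neurons, read 36.5, 57.3 and 103 at time 0 and 1.1, 0.8 and 1.5 at time 96, a change of -5.77 (SE 0.92, adjusted p = 0.00019). GASK1B read 209, 226 and 167 at time 0 and 12.0, 12.0 and 16.9 at time 96, a change of -3.89 (SE 0.30, adjusted p = 6.8e-08). PLN, the calcium pump inhibitor phospholamban, read 78.7, 71.6 and 61.8 at time 0 and 7.8, 4.2 and 5.6 at time 96, a change of -3.63 (SE 0.68, adjusted p = 0.00079). The arrays of the times did not overlap for these 4 genes, as the rule for choosing the 15 required. The other 5 of the 15 were CCDC85A, CBLN2 (cerebellin 2), C1S (a complement protease), TM7SF2 (a sterol reductase) and CFAP95, with changes of -4.25, -4.19, -3.98, -3.78 and -3.67. All 5 read at most 21 at time 96, and CFAP95 was not called with the mean of its probe sets (-1.36). Other probe sets were examined for 34 genes, those with the largest changes or differences from mock and also MYC and MAX. Of these, 15 had another probe set above the filter, and all 27 such probe sets changed in the same direction. The rest, MYCN among them, had none. Sizes differed between probe sets of a gene. Among others, changes were smaller for IGFBP5 (-2.70 and -0.52 beside -4.60), C7 (-3.13 beside -6.33) and SIK1 (0.67 beside 1.89). They were larger for C1S (-5.12 beside -3.98) and TKTL1 (4.99 beside 3.21), among others. MAX supplied 4 of the 27, with changes of only 0.04 to 0.31.

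In the mock line the changes of the called genes centred near 0. Between the mock arrays of times 0 and 96 the median change over all genes was 0.01, and 274 genes (2.31%) differed at least 2-fold, with no replicate to judge them by. Of all genes tested, 51.4% were higher in mock at time 96. Genes called higher in the MYCN line had a median mock change of -0.03, and 45.6% of them were higher in mock too. Those called lower had 0.03, and 45.5% of them were lower in mock too. A mock change in the same direction and at least as large stood beside 27 of the genes called higher and 28 of those called lower. The test of the difference, the MYCN line change minus the mock change, called 358 genes (3.02%), 201 positive (1.69%) and 157 negative (1.32%). It rests on single mock arrays, taken to vary like those of the MYCN line, and 335 of its calls (2.82% of genes tested) were also calls of the MYCN line with the same sign. Its count fell to 89 with equal array medians and to 202 without replicate 2 of time 96, and rose to 570 without replicate 3 of time 96.

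MYCN (5.09, adjusted p = 1.2e-07), IGFBP5 (-4.96, adjusted p = 0.0075), TAC1 (-5.72, adjusted p = 0.028), GASK1B (-3.92, adjusted p = 0.0018) and PER2 (1.69, adjusted p = 0.0017) were among the genes whose change differed from that of mock. The TAC1 call ended without replicate 2 of time 96 (-5.27) and with eBayes without a trend, the IGFBP5 call when probe sets were averaged (-2.95) and the MYCN call without _s_at and _x_at probe sets (-1.12). For 3 others the mock array of time 96 was the low value. DDN read 18.0 and 3.5 in mock, PRKCD 39.5 and 4.5 and HPDL 11 and 2.4. Their differences of 4.71, 3.92 and 3.07 thus exceeded the changes of the MYCN line, which were 2.35, 0.78 and 0.87. The MYCN line call of PRKCD ended under 9 alternatives, among them without replicate 1 (0.87) or 2 (0.58). That of HPDL ended under 7, among them without replicate 1 (1.01), 2 (1.01) or 3 (0.59). Base levels also differed between the lines. Of the 103 genes called at least 4-fold lower, both mock arrays lay above every time 96 array of the MYCN line in 86, and within or below its time 96 range in 13. FN1 was one of those 13, at 240.2 and 264 in mock. These genes were picked for low arrays at time 96, so the 86 does not itself show a difference in base level. Both mock arrays also lay above every time 0 array in 55 of the 103. Of the 19 genes called at least 4-fold higher, both mock arrays lay below every time 96 array in 12. They lay within or above the time 96 range in 7, and below every time 0 array in 2. Such shares were not taken over all genes.

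**Figure D2:**
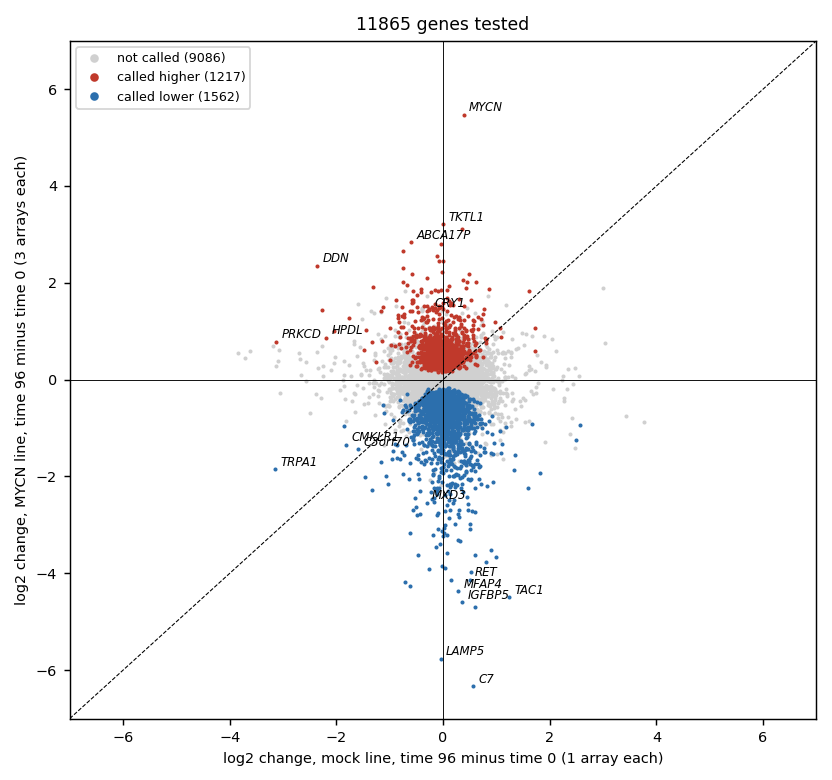
Change of each of the 11865 genes tested in the MYCN line (3 arrays per time, vertical, log2) against its change between the single mock arrays (horizontal, log2), with genes called higher in red, lower in blue and not called in grey; the dashed line marks equal changes. Called genes spread along the vertical axis with mock medians of -0.03 and 0.03, and TRPA1 is the lowest labelled gene beside the dashed line.

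For the gene lists, each count below stands against 10.3% of all genes called higher and 13.2% called lower, with a median change of -0.03 over all genes. No scaling alternative turned the sign of a list median except in p53 target genes, receptor tyrosine kinases and lysosome and autophagy, whose medians lay within 0.02 of 0. Over all alternatives 16 medians changed sign, among them those of the noradrenergic, neuronal cytoskeleton and YAP lists. With equal array medians 4.88% of all genes were called higher and 8.33% lower, and without replicate 2 3.05% and 3.58%, so counts under those settings stand against these shares. They are given for every list with at least 40% of its tested genes called in 1 direction and for some others.

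**Figure D3:**
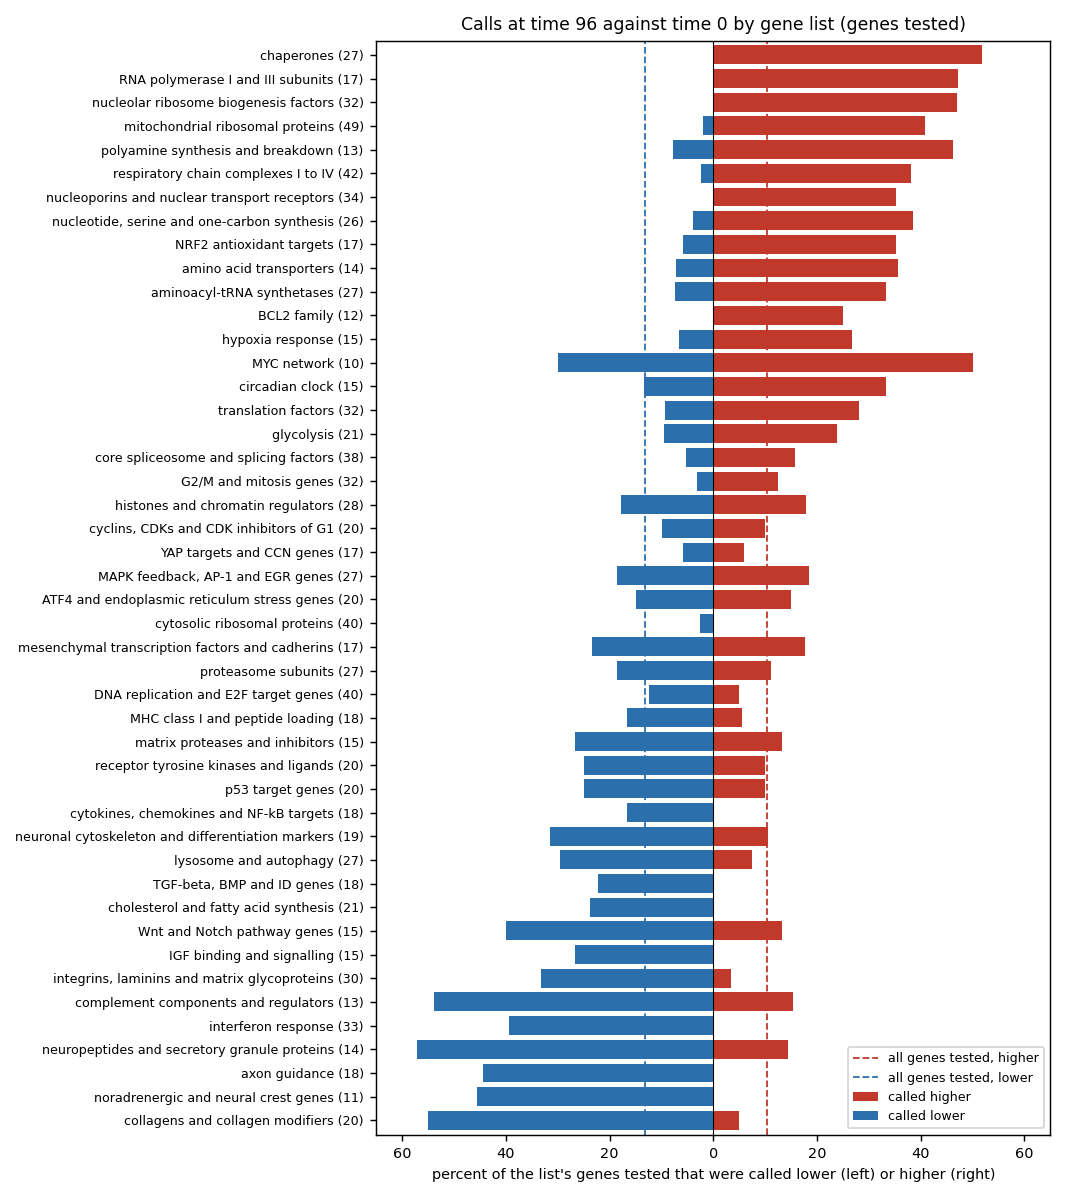
Percent of the tested genes of each of 46 lists called higher (red, right) or lower (blue, left) at time 96 against time 0, with the number tested in parentheses and dashed lines at the shares of all genes tested, 10.3% higher and 13.2% lower. Chaperones, RNA polymerase subunits and nucleolar factors stand at the top, and collagens, noradrenergic and axon guidance genes at the bottom.

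Calls among the factors that build ribosomes in the nucleolus were all increases. Of 32 tested, 15 were called higher and 0 lower, with a median change of 0.27 (mock -0.20). The count was 10 with equal array medians and 4 without replicate 2. RRP9, a protein of the U3 small nucleolar complex, read 73.9, 76.0 and 129 at time 0 and 240.3, 248 and 169 at time 96, a change of 1.27 (SE 0.18, adjusted p = 7.3e-05). DDX10, an RNA helicase, read 213, 186 and 207 at time 0 and 339, 391 and 366 at time 96, a change of 0.85 (SE 0.10, adjusted p = 1.2e-05), not called with the mean of its probe sets (0.65). IMP4, a further U3 protein, read 911, 744 and 861 at time 0 and 1226, 1140.2 and 1192 at time 96, a change of 0.50 (SE 0.08, adjusted p = 0.00015). Arrays of the times did not overlap for any of them, and WDR12, of the complex that processes large-subunit RNA, rose by 0.50 (adjusted p = 0.00011). Not every nucleolar gene moved, since NPM1 (-0.01), NOP58 (-0.11) and NCL (0.24) were not called.

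RNA polymerases I and III followed, with 8 of 17 called higher and 0 lower (median 0.24; 2 higher with equal array medians and also without replicate 2). POLR1G, a polymerase I subunit, read 183, 171 and 242 at time 0 and 634, 752 and 492 at time 96, a change of 1.65 (SE 0.19, adjusted p = 8.4e-06). Cytosolic ribosomal proteins had 1 call. Of 40 tested, 0 were called higher and 1 lower, with a median of -0.09 and changes between -0.21 and 0.11. The 1 call, RPS9 (-0.21, adjusted p = 0.016), ended with equal array medians (-0.18), without replicate 2 (-0.22), without replicate 3 (-0.12), without replicate 3 of time 0 (-0.17) and without replicate 3 of time 96 (-0.16), among others.

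Promoter sequence was examined for the canonical E-box, CACGTG, which reads the same on both strands, in windows from 250 bases before to 50 after each annotated start (RefSeq, GRCh38.p14, 9731 of the tested genes, a gene with several starts having several windows). It was present in 9.53% of windows of all tested genes, 17.0% of those of genes called higher and 5.31% of those called lower. Among genes called at least 2-fold higher the share was 23.5%, and among those at least 2-fold lower 4.29%. Of 26 nucleolar factors with a window 16 (61.5%) had the motif in at least 1 window, beside 12.9% of all genes. This was the highest share of the 6 lists examined. It was 31.8% (7 of 22) for nucleotide, serine and one-carbon synthesis. Mitochondrial ribosomal proteins (6 of 44) and chaperones (3 of 22) both had 13.6%, near that of all genes. Interferon response genes had 11.1% (3 of 27) and collagens 0 of 16. The motif lay wholly before the start in 1187 of the 1348 windows that hold it among all genes tested and in 6 of the 16 among nucleolar factors, the rest reaching to or past the start. Median GC content was 65% in windows of genes called higher and 64.7% in those called lower and in all. It was lower in windows of genes called at least 2-fold lower (62.3%) and of nucleolar factors (60.7%). These are shares of letters and show no binding. Among nucleolar genes called higher 10 windows held the motif, 5 of them wholly before the start. The windows of 4 of these genes follow, to let its place be seen, with the motif in capitals and up to 40 bases on either side, written 5′ to 3′ on the gene's strand. They were taken by smallest p, with genes on 1 chromosome left out beforehand.
IMP4, chr2:130342654-130342739, plus strand, motif 203 bases before the start: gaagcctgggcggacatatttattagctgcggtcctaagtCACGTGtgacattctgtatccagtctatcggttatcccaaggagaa
LYAR, chr4:4290040-4290125, minus strand, motif 64 bases before the start: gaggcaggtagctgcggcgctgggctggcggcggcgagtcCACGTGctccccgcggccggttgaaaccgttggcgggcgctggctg
DDX21, chr10:68956576-68956646, plus strand, motif 31 bases before the start: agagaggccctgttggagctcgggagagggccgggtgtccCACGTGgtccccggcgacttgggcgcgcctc
UTP20, chr12:101280055-101280104, plus strand, motif 10 bases before the start: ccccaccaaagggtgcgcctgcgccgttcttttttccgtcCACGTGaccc

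LYAR, a nucleolar protein of growing cells, read 366, 286 and 345 at time 0 and 489, 521 and 523 at time 96, a change of 0.63 (SE 0.11, adjusted p = 0.00034), and the call ended without replicate 2 (0.51). DDX21, an RNA helicase, read 2837, 2240.1 and 2789 at time 0 and 3089.9, 2981 and 3174 at time 96, a change of 0.24 (SE 0.07, adjusted p = 0.025). UTP20, of the small-subunit processome, read 212, 179.8 and 249 at time 0 and 317, 329 and 251 at time 96, a change of 0.49 (SE 0.15, adjusted p = 0.026). The DDX21 call ended under 11 alternatives, among them a fit to the 6 arrays alone (0.24) and equal array medians (0.27). It also ended without replicate 1 (0.30), 2 (0.15) or 3 (0.27), without replicate 2 of time 0 (0.13) and without replicate 1 (0.24) or 3 (0.22) of time 96. The UTP20 call ended in a fit to the 6 arrays alone (0.49) and with equal array medians (0.52). It also ended without replicate 1 (0.44) or 2 (0.30), without replicate 1 (0.49) or 2 (0.37) of time 0, and without replicate 1 (0.44) or 2 (0.42) of time 96.

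**Figure D4:**
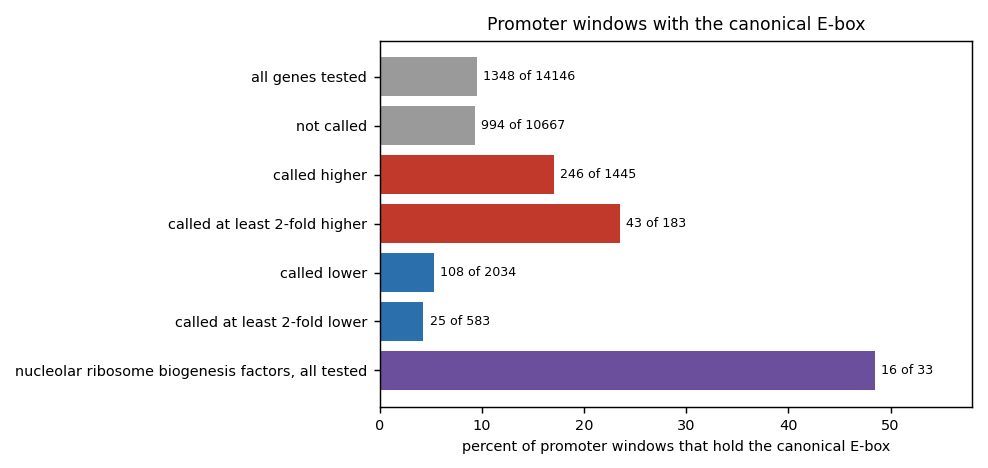
Percent of promoter windows (250 bases before to 50 after an annotated start) that hold the canonical E-box, by call at time 96 against time 0, with numbers of windows beside the bars. The share is 17.0% for genes called higher, 5.31% for genes called lower and 9.32% for genes not called.

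Mitochondrial ribosomal proteins and chaperones were called higher far more often than lower. Among mitochondrial ribosomal proteins 20 of 49 were called higher and 1 lower (median 0.26; 5 higher with equal array medians and 7 without replicate 2). MRPS5 read 432, 432 and 456 at time 0 and 712, 792 and 669 at time 96, a change of 0.72 (SE 0.09, adjusted p = 2.2e-05), not called without _s_at and _x_at probe sets (0.63), and MRPS17 rose by 0.47 (adjusted p = 0.00016). The 1 lower member, MRPL17, read 830.3, 839 and 774 at time 0 and 633, 555 and 596 at time 96, a change of -0.45 (SE 0.08, adjusted p = 0.00036), not called with equal array medians (-0.42). Chaperones had 14 of 27 higher and 0 lower (median 0.22; 5 with equal array medians and 6 without replicate 2). HSPA9, the mitochondrial Hsp70, read 1556, 1412 and 1552 at time 0 and 2257, 2298 and 2284 at time 96, a change of 0.60 (SE 0.07, adjusted p = 4.9e-06). GRPEL1, its nucleotide exchange factor, read 376, 282 and 268 at time 0 and 606, 648 and 483 at time 96, a change of 0.91 (SE 0.14, adjusted p = 0.00015). The arrays of the times were well separated for both, and FKBP4, a partner of Hsp90 in the cytosol, rose by 0.82 (adjusted p = 5.3e-05). Respiratory chain subunits had 16 of 42 higher and 1 lower (median 0.16), of which 2 were higher with equal array medians. UQCRC2, of complex III, read 1525, 1556 and 1218 at time 0 and 1934, 1869.9 and 2082 at time 96, a change of 0.46 (SE 0.09, adjusted p = 0.0015), and was not called with equal array medians (0.49).

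Lists of genes that supply protein and nucleic acid synthesis had more increases than decreases called. Aminoacyl-tRNA synthetases had 9 of 27 higher and 2 lower (median 0.25). NARS2, the mitochondrial asparaginyl enzyme, rose by 0.65 (adjusted p = 0.00014) and IARS1, the isoleucyl enzyme, by 0.39 (adjusted p = 0.0012), while HARS1, the histidyl enzyme, fell by 0.48 (adjusted p = 0.00073) and was not called with equal array medians (-0.44). Translation factors had 9 of 32 higher and 3 lower (median 0.08). EIF3J, a loosely bound part of initiation factor eIF3, read 1178, 1070.3 and 1061 at time 0 and 1773, 1728 and 1561 at time 96, a change of 0.61 (SE 0.07, adjusted p = 3.8e-06), whereas EIF2B1, of the exchange factor eIF2B, read 1329.5, 1162 and 1378 at time 0 and 869, 939 and 982 at time 96, a change of -0.47 (SE 0.07, adjusted p = 0.00014). Amino acid transporters had 5 of 14 higher and 1 lower (median 0.27). SLC7A1 rose by 0.72 (adjusted p = 0.0023), a call that ended without replicate 2 and without _s_at and _x_at probe sets (0.55 in both). Nucleoporins and nuclear transport receptors had 12 of 34 higher and 0 lower (median 0.19; 2 with equal array medians), and IPO5, an importin, read 551, 521 and 481 at time 0 and 714, 707 and 735 at time 96, a change of 0.48 (SE 0.07, adjusted p = 0.00012).

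Nucleotide, serine and one-carbon synthesis had 10 of 26 genes higher and 1 lower (median 0.22). MTHFD2, the mitochondrial folate enzyme, read 1658, 1440.1 and 1313 at time 0 and 2355, 2287 and 2314 at time 96, a change of 0.66 (SE 0.10, adjusted p = 8.9e-05). PPAT, the first enzyme of purine synthesis, read 203, 196 and 178 at time 0 and 288, 309 and 372 at time 96, a change of 0.74 (SE 0.12, adjusted p = 0.00019), not called without _s_at and _x_at probe sets (0.34). IMPDH2, which leads to guanine nucleotides, went down with 1575, 1606 and 1579 at time 0 and 1036, 1040.5 and 1263 at time 96, a change of -0.52 (SE 0.09, adjusted p = 0.00038). Its 3 arrays of time 96 lay below all of time 0, and in mock it read 1593 and 1525. Polyamine genes had 6 of 13 higher and 1 lower (median 0.24, mock -0.21; 3 higher with equal array medians and 2 without replicate 2). ODC1, the rate-limiting enzyme, read 1479.8, 1257 and 1301 at time 0 and 2549.9, 2520.3 and 2547 at time 96, a change of 0.92 (SE 0.08, adjusted p = 3.3e-07). MTAP, which salvages methionine from the pathway, read 98.1, 96.8 and 74.9 at time 0 and 171, 212 and 162 at time 96, a change of 1.02 (SE 0.18, adjusted p = 0.00044). Both lay clear of time 0, and SMOX, spermine oxidase, rose by 0.85 (adjusted p = 0.0035) with a call that ended without replicate 2 (0.63).

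**Figure D5:**
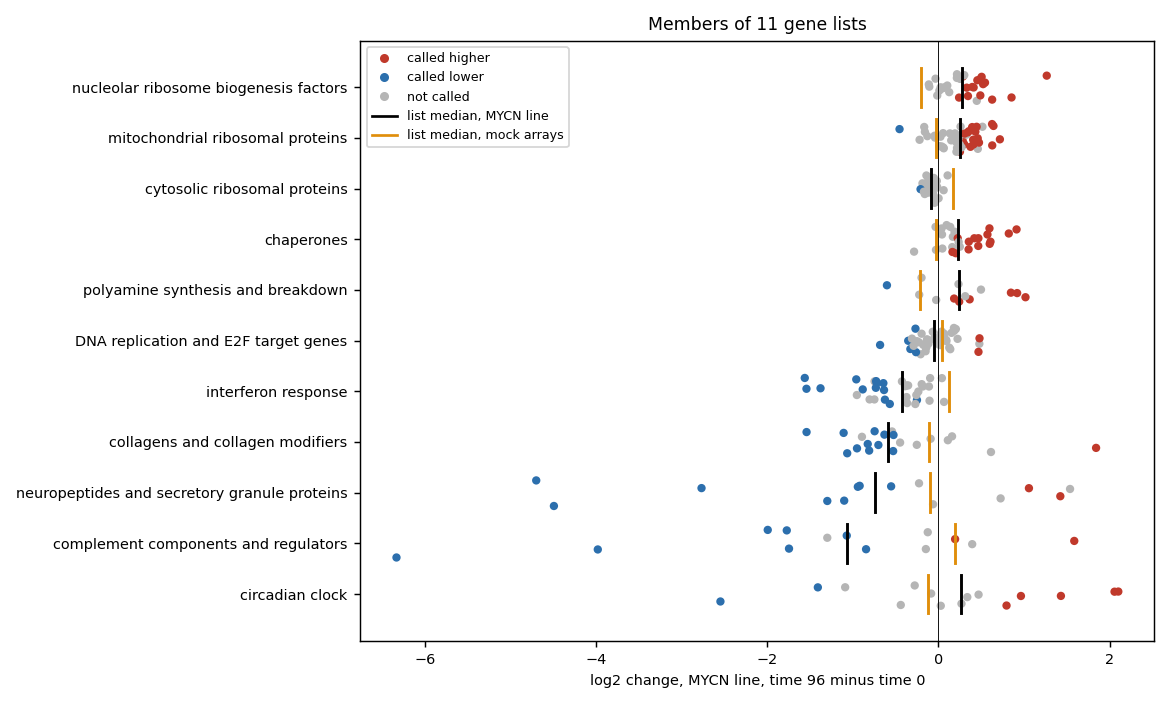
Log2 change at time 96 against time 0 of each tested member of 11 lists (points; red called higher, blue called lower, grey not called), with the list median in the MYCN line (black bar) and between the mock arrays (orange bar). Nucleolar factors centre on 0.27 and cytosolic ribosomal proteins on -0.09, and complement genes reach down to -6.33.

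Glucose, oxygen and redox genes changed in part. Glycolysis had 5 of 21 higher and 2 lower (median 0.10). GPI, glucose phosphate isomerase, read 1086, 1059 and 1099 at time 0 and 1412, 1435 and 1516 at time 96, a change of 0.43 (SE 0.07, adjusted p = 0.00029). HK2, hexokinase 2, rose by 0.85 (adjusted p = 0.0012; not called without replicate 2, 0.57), and ALDOC, the brain form of aldolase, fell by 1.45 (adjusted p = 0.0044; not called without replicate 2, -1.05). Hypoxia response genes had 4 of 15 higher and 1 lower (median 0.12). VEGFA, the vascular growth factor, read 449, 418 and 384 at time 0 and 614, 677 and 565 at time 96, a change of 0.57 (SE 0.13, adjusted p = 0.0035), and was not called with equal array medians (0.60) or without replicate 2 (0.51). NRF2 antioxidant targets had 6 of 17 higher and 1 lower (median 0.20), and 0 of either direction with equal array medians. TXNRD1, thioredoxin reductase, read 2183, 1589 and 1445 at time 0 and 3073, 3024 and 2388 at time 96, with a change of 0.72 (adjusted p = 0.014) that was not called with equal array medians (0.75) or the mean of its probe sets (0.76), without replicate 1 (0.83) or 2 (0.61), without replicate 2 (0.66) or 3 (0.59) of time 0, or without replicate 1 (0.65) or 2 (0.66) of time 96. ATF4 and endoplasmic reticulum stress genes had 3 of 20 higher and 3 lower (median 0.12). TRIB3, an ATF4 target, read 277, 284 and 239 at time 0 and 428, 456 and 542 at time 96, a change of 0.83 (SE 0.13, adjusted p = 0.00021), while CRELD2, a secreted stress protein, read 486, 447 and 521 at time 0 and 196, 213 and 169.8 at time 96, a change of -1.33 (SE 0.14, adjusted p = 2.2e-06).

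Few cell division genes passed the test. DNA replication and E2F targets had 2 of 40 higher and 5 lower (median -0.05), shares at or under the background. LIG1, DNA ligase I, read 214, 248 and 239 at time 0 and 146, 154 and 138 at time 96, a change of -0.68 (SE 0.10, adjusted p = 9.1e-05). CCNE1, cyclin E1, rose by 0.48 (adjusted p = 0.0046), but its change was -0.32 with the mean of its probe sets. The CCNE1 call also ended without replicate 2 (0.42). The replication licensing genes MCM2, MCM3, MCM4, MCM6 and MCM7 were not called, with changes between -0.15 and 0.14, and the call of MCM5 (-0.35, adjusted p = 0.028) ended under 11 alternatives, among them without replicate 2 (-0.37) or 3 (-0.24), without replicate 1 (-0.36) or 3 (-0.26) of time 0 and without replicate 2 (-0.28) or 3 (-0.34) of time 96. Mitosis genes had 4 of 32 higher and 1 lower (median 0.09). Cyclins, kinases and inhibitors of the G1 phase had 2 of 20 higher and 2 lower (median 0.00). CDKN1C, the inhibitor p57, read 45.8, 66.8 and 48.6 at time 0 and 14.7, 22.1 and 20.4 at time 96, a change of -1.5 (SE 0.29, adjusted p = 0.00095), and was not called with the mean of its probe sets (-1.12). Proteasome subunits had 3 of 27 higher and 5 lower (median 0.03), and splicing factors 6 of 38 higher and 2 lower (median 0.07).

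Histones and chromatin regulators had 5 of 28 higher and 5 lower (median -0.04). HMGA1, an architectural chromatin protein, read 529.7, 491 and 629.9 at time 0 and 1234, 1523 and 1128 at time 96, a change of 1.23 (SE 0.15, adjusted p = 8.4e-06). SIRT1, a deacetylase, rose by 0.55 (adjusted p = 0.00019; not called without replicate 2, 0.44), and CBX5, the heterochromatin protein HP1 alpha, fell by 0.83 (adjusted p = 0.0055; not called without replicate 2, -0.49). Among p53 targets 2 of 20 were higher and 5 lower (median -0.02, 0.01 with equal array medians). PLK2, a polo-like kinase, read 1184, 689 and 1011 at time 0 and 332, 274 and 406 at time 96, a change of -1.5 (SE 0.22, adjusted p = 7.4e-05). TP53INP1 read 32.0, 65.1 and 41.9 at time 0 and 10.1, 7.3 and 7.7 at time 96, a change of -2.42 (SE 0.42, adjusted p = 0.00042). TP53I3 fell by 1.10 (adjusted p = 1.7e-05), so these 3 targets fell together, while PMAIP1, the cell death activator NOXA, read 701, 579.7 and 426 at time 0 and 1057, 967 and 952 at time 96, a change of 0.83 (SE 0.17, adjusted p = 0.0019), not called without replicate 2 (0.88). In the BCL2 family, which shares PMAIP1, 3 of 12 were higher and 0 lower (median 0.23).

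Calls among interferon response genes were all decreases. Of 33 tested, 0 were called higher and 13 lower (10 with equal array medians, 4 without replicate 2), with a median change of -0.43 (mock 0.12). CMPK2, a mitochondrial nucleotide kinase, read 174, 170.2 and 158 at time 0 and 61.2, 52.0 and 59.6 at time 96, a change of -1.54 (SE 0.17, adjusted p = 3.1e-06). IFI44 read 312, 368 and 354 at time 0 and 111, 112 and 186 at time 96, a change of -1.38 (SE 0.20, adjusted p = 9.3e-05). IRF9, the DNA-binding part of the factor that interferon activates, read 129.9, 172 and 136 at time 0 and 62.1, 72.6 and 91.5 at time 96, a change of -0.96 (SE 0.17, adjusted p = 0.00048), and was not called without replicate 2 (-0.82). IFI35 fell by 0.73 (adjusted p = 7.3e-05), and the arrays of the times did not overlap for any of these 4 genes. Genes of MHC class I and peptide loading had 1 of 18 higher and 3 lower (median -0.12). TAP2, of the peptide transporter, rose by 0.50 (adjusted p = 0.0035; not called with equal array medians, 0.53, the mean of its probe sets, 0.60, or without replicate 2, 0.43).

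Complement genes had the lowest median of the 46 lists, -1.07 (mock 0.19), with 7 of 13 lower and 2 higher. With equal array medians 7 were lower, and without replicate 2, 4. C1R, the protease partner of C1S, read 173, 183 and 175 at time 0 and 38.2, 48.3 and 75.1 at time 96, a change of -1.77 (SE 0.28, adjusted p = 0.00017). C1S read 95.7, 69.4 and 55.5 at time 0 and 6.9, 2.3 and 5.9 at time 96, a change of -3.98 (SE 0.58, adjusted p = 8.0e-05). CD55, which protects cells by dissolving complement convertases, rose with 282, 328 and 236 at time 0 and 814, 908 and 796 at time 96, a change of 1.59 (SE 0.18, adjusted p = 4.6e-06). The secreted components C7, C1R and C1S thus fell and CD55, a surface inhibitor, rose. Cytokines, chemokines and NF-kB targets had 0 of 18 higher and 3 lower (median 0.07). CXCL12, a chemokine of stromal cells, read 92.2, 78.2 and 78.8 at time 0 and 21.5, 11.1 and 27.3 at time 96, a change of -2.15 (SE 0.35, adjusted p = 0.00021). VCAM1, an adhesion molecule, read 59.5, 93.9 and 88.7 at time 0 and 16.1, 16.6 and 21.2 at time 96, a change of -2.15 (SE 0.33, adjusted p = 0.00014).

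Calls among collagen and matrix glycoprotein genes were mostly decreases. Collagens and their modifiers had 11 of 20 lower and 1 higher, with a median of -0.59 (mock -0.11; 11 lower with equal array medians and 9 without replicate 2). COL3A1 read 6047, 5804 and 7133 at time 0 and 2654, 2716 and 3466 at time 96, a change of -1.11 (SE 0.18, adjusted p = 0.00025). COL4A6, a basement membrane chain, read 255, 278 and 331 at time 0 and 142, 139.6 and 129 at time 96, a change of -1.07 (SE 0.16, adjusted p = 0.00011). SERPINH1, the collagen chaperone HSP47, fell by 0.53 (adjusted p = 0.00013), and LOXL1, a crosslinking oxidase, by 0.81 (adjusted p = 0.00066). The exception COL13A1, a transmembrane collagen, read 123, 116 and 110.5 at time 0 and 552, 626 and 211 at time 96, a change of 1.84 (SE 0.46, adjusted p = 0.0069), and was not called without replicate 1 (1.68) or replicate 2 (1.55). Its replicate 3 at time 96 was the lowest of the 3.

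Integrins, laminins and matrix glycoproteins had 10 of 30 lower and 1 higher (median -0.30; 8 lower with equal array medians and also without replicate 2). FN1, fibronectin, read 2139, 2006 and 2343 at time 0 and 350.4, 226 and 463 at time 96, a change of -2.70 (SE 0.27, adjusted p = 1.8e-06). HAS2, which makes hyaluronan, read 235, 205 and 186 at time 0 and 40.2, 20.7 and 40.2 at time 96, a change of -2.69 (SE 0.27, adjusted p = 1.4e-06). TNC, tenascin C, read 250.4, 165 and 196 at time 0 and 78.9, 41.2 and 27.8 at time 96, a change of -2.16 (SE 0.33, adjusted p = 0.00013). Arrays of the times lay apart for all 3, and CD44, the hyaluronan receptor, rose with 974, 766 and 642 at time 0 and 2238, 2136 and 1422 at time 96, a change of 1.28 (SE 0.31, adjusted p = 0.0055) (not called without replicate 2, 1.17). Matrix proteases and inhibitors had 2 of 15 higher and 4 lower (median -0.03), among them PLAT, tissue plasminogen activator, with 477, 618 and 528 at time 0 and 219, 202 and 207 at time 96, a change of -1.36 (SE 0.12, adjusted p = 5.4e-07). Mesenchymal transcription factors and cadherins had 3 of 17 higher and 4 lower (median -0.07). FOSL1, an AP-1 subunit, read 315, 142 and 259 at time 0 and 953, 928 and 407 at time 96, a change of 1.65 (SE 0.39, adjusted p = 0.0044) (not called without replicate 2, 1.12), and PRRX1, a mesenchymal homeobox factor, fell by 0.84 (adjusted p = 0.0062; not called without replicate 1, -0.62, or 2, -0.66).

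In each of 4 neural lists more genes were called lower than higher. Neuropeptides and granule proteins had 8 of 14 lower and 2 higher (median -0.74, mock -0.10; 6 lower with equal array medians and 3 without replicate 2). NTS, the neurotensin precursor, read 317, 557 and 394 at time 0 and 45.6, 41.9 and 115 at time 96, a change of -2.77 (SE 0.47, adjusted p = 0.00033). PAM, which amidates peptides, read 4650.3, 4592 and 4765 at time 0 and 3162, 3133 and 3251 at time 96, a change of -0.55 (SE 0.07, adjusted p = 1.2e-05). GAL, the galanin precursor, went up with 91.9, 97.5 and 99.4 at time 0 and 249, 275 and 251 at time 96, a change of 1.42 (SE 0.14, adjusted p = 9.8e-07). Each of the 3 had arrays that did not overlap, so peptides of the same list moved apart. Noradrenergic and neural crest genes had 5 of 11 lower and 0 higher (median -0.42; 4 lower with equal array medians and 2 without replicate 2). The noradrenergic median ran from -0.66 to 0.07 over the alternatives, and of 23 listed genes 21 had a probe set and 11 were bright enough to test. SOX11 read 540.4, 684 and 571 at time 0 and 142, 143 and 242 at time 96, a change of -1.81 (SE 0.26, adjusted p = 7.2e-05). TBX2 fell by 1.26 (adjusted p = 0.00028; not called with the mean of its probe sets, -0.99), and SOX4 by 0.89 (adjusted p = 0.00041; not called without replicate 2, -0.70, or with the mean of its probe sets, -0.51).

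Neuronal cytoskeleton and differentiation markers had 6 of 19 lower and 2 higher (median -0.21; 5 lower with equal array medians and 1 without replicate 2). PRPH, the intermediate filament peripherin, read 611, 1007 and 806 at time 0 and 148, 153 and 288 at time 96, a change of -2.08 (SE 0.34, adjusted p = 0.0002). MAP2, a microtubule protein of dendrites, fell by 1.51 (adjusted p = 0.0024; not called without replicate 2, -1.24). TUBA1A, a neuronal alpha tubulin, fell by 1.18 (adjusted p = 0.0018; not called without replicate 2, -0.98). Axon guidance genes had 8 of 18 lower and 0 higher (median -0.55; 5 lower with equal array medians and without replicate 2). ROBO1, a SLIT receptor, read 1135, 1168 and 1085 at time 0 and 534, 506 and 598 at time 96, a change of -1.05 (SE 0.16, adjusted p = 9.0e-05). UNC5C, a netrin receptor, read 239, 261 and 224 at time 0 and 83.0, 94.2 and 146 at time 96, a change of -1.20 (SE 0.20, adjusted p = 0.00025). Every array of time 96 lay below time 0 for both receptors, and the semaphorin SEMA3A fell by 0.94 (adjusted p = 0.00044).

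Growth factor signalling changed member by member. Receptor tyrosine kinases and ligands had 2 of 20 higher and 5 lower (median -0.01, 0.03 with equal array medians). PDGFRA fell by 1.88 (adjusted p = 0.00039; not called without replicate 2, -1.52, or with the mean of its probe sets, -0.60) and PDGFRB by 1.19 (adjusted p = 0.0027; not called without replicate 2, -1.03), beside RET above. The IGF list had 0 of 15 higher and 4 lower (median -0.09), with IGFBP6 at 162, 162 and 187 at time 0 and 107, 97.7 and 111 at time 96, a change of -0.69 (SE 0.15, adjusted p = 0.003). MAPK feedback, AP-1 and EGR genes had 5 of 27 in each direction (median 0.08). SPRY2, a Sprouty inhibitor, read 1534, 1001 and 1439 at time 0 and 474, 412 and 477 at time 96, a change of -1.52 (SE 0.18, adjusted p = 7.5e-06). JUNB, an AP-1 subunit, read 53.9, 62.5 and 84.8 at time 0 and 185, 124 and 122 at time 96, a change of 1.10 (SE 0.21, adjusted p = 0.0011). DUSP10, a phosphatase of p38 and JNK, fell by 0.79 (adjusted p = 0.00025), whereas DUSP5, described above, rose, so feedback phosphatases moved both ways.

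Wnt and Notch genes had 6 of 15 lower and 2 higher (median -0.55, mock 0.14; 4 lower with equal array medians and 1 without replicate 2). LGR5, an R-spondin receptor, read 968, 792 and 949.5 at time 0 and 553, 536 and 561 at time 96, a change of -0.71 (SE 0.12, adjusted p = 0.00025). The Wnt receptors FZD2 and FZD7 fell by 1.02 (adjusted p = 0.0039) and 1.04 (adjusted p = 0.0024), neither called without replicate 2 (-0.90 and -1.18). HES1, a Notch target, read 140.4, 239.7 and 147 at time 0 and 233, 326 and 442 at time 96, a change of 0.92 (SE 0.20, adjusted p = 0.0023) (not called without replicate 3, 0.59). TGF-beta, BMP and ID genes had 0 of 18 higher and 4 lower (median -0.21). ID1, an inhibitor of basic helix-loop-helix factors, read 2542, 3284 and 2877 at time 0 and 2364, 1962 and 2037 at time 96, a change of -0.45 (SE 0.09, adjusted p = 0.00098), and was not called with equal array medians (-0.42) or without replicate 2 (-0.30). YAP targets and CCN genes had 1 of 17 higher and 1 lower (median 0.24; mock -0.49), shares under the background.

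Circadian clock genes had 5 of 15 higher and 2 lower (median 0.27, mock -0.12; 5 and 2 also with equal array medians, 3 and 2 without replicate 2). PER2, a repressor of the clock, read 63.8, 65.2 and 60.7 at time 0 and 272, 259 and 258 at time 96, a change of 2.06 (SE 0.12, adjusted p = 2.2e-09). CRY1, its partner, read 524, 363 and 407 at time 0 and 1157, 1189.9 and 1104 at time 96, a change of 1.43 (SE 0.12, adjusted p = 3.3e-07). BHLHE41, the repressor DEC2, read 40.7, 18.5 and 26.7 at time 0 and 133, 108 and 110.3 at time 96, a change of 2.10 (SE 0.23, adjusted p = 4.6e-06). These 3 repressors were above time 0 on every array, and BMAL1, the activator they act on, was below it with 103, 108 and 89.2 at time 0 and 11.8, 29.7 and 14.2 at time 96, a change of -2.55 (SE 0.27, adjusted p = 2.4e-06). CLOCK, the partner of BMAL1, was not called (0.03). The labels do not say at what hour of the day cells were harvested.

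Lipid and lysosome genes had more decreases than increases called. Cholesterol and fatty acid synthesis had 0 of 21 higher and 5 lower (median -0.44; mock 0.09). STARD4, a cholesterol carrier, read 674, 632 and 563 at time 0 and 259.9, 312 and 400.5 at time 96, a change of -0.96 (SE 0.16, adjusted p = 0.00032). IDI1, an isomerase of the pathway, fell by 0.71 (adjusted p = 0.00091; not called without replicate 2, -0.66, or without _s_at and _x_at probe sets, -0.40). Lysosome and autophagy genes had 8 of 27 lower and 2 higher (median -0.02, 0.02 with equal array medians). NPC2, which carries cholesterol out of lysosomes, read 2441, 2316 and 2282 at time 0 and 1523, 1518 and 1762 at time 96, a change of -0.55 (SE 0.08, adjusted p = 6.2e-05), NEU1, a sialidase, fell by 0.68 (adjusted p = 0.00012), and MAP1LC3B, the autophagosome protein LC3B, rose by 0.63 (adjusted p = 0.003; not called with equal array medians, 0.67, or without replicate 1, 0.58).

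Few genes told time 96 from its neighbours in time. Between times 48 and 96, 2 genes were called (0.0169%), both lower at 96, and 702 (5.92%) had an unadjusted p under 0.05. MXD3 had a mean intensity of 46.0 ± 5.08 (SD, n = 3) at time 48, 11.7 ± 3.39 at 96 and 30.2 ± 8.50 at 192, a change of -2.01 from 48 to 96 (limma adjusted p = 0.0071). GASK1B had 56.9 ± 22.6, 13.6 ± 2.83 and 5.47 ± 1.22, a change of -2.0 (limma adjusted p = 0.013). Between times 96 and 192, 1 gene was called (0.00843%) and 739 (6.23%) had an unadjusted p under 0.05. That gene was PLAT, at 281 ± 39.2, 209 ± 8.60 and 115 ± 14.4, a change of -0.86 (limma adjusted p = 0.013). Time 96 thus held the lowest of the 3 means for MXD3, and lay between them for GASK1B and PLAT. Both counts moved when arrays were left out. Without single arrays of time 48 or 96 the first count ran from 0 to 5, and without single arrays of time 96 or 192 the second ran from 0 to 10.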

How the data were processed

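Total RNA of 28 samples was hybridised to single-colour Affymetrix arrays. The deposited values are linear intensity values, 1 per probe set and array, and per the submitters' processing notes the authors used MAS5 and GCOS, which summarise and scale each array (versions not given in the sources used here). Their mean after trimming 2% at either end was 100 on every array, so no further scaling was applied. The deposited intensity was taken to log2 after 91 values at or under 0 were set to 0.1.

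By the platform annotation 41091 of 54675 probe sets named 1 gene (1801 several, 11721 none, 62 controls), and 41037 matched a current identifier. The brightest probe set stood for each of 19775 genes, and 11865 at or above the 40th percentile of average log2 signal (3.68) were tested. limma 3.58.1 in R 4.3.3 (lmFit, eBayes with trend) fitted the 21 MYCN line arrays (14 residual degrees of freedom), and all 28 for the difference from mock. Tests were two-sided, Benjamini-Hochberg adjusted over all genes tested and called under 0.05.

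The 46 lists (1262 genes), the comparisons and the members were chosen with earlier results of these data known. Named genes came from a rule: MYCN, MYC and MAX; the 15 largest called changes in each direction; up to 4 called members per list by smallest p, and the best of the rarer direction; the 5 largest differences from mock in each direction; 5 genes whose mock change was at least as large; and calls against times 48 and 192. Intensity had to reach 50 at the brighter time where size set the order. For the 15 largest changes in each direction the arrays of the times also had to be without overlap. NPM1, NOP58, NCL, MCM genes and CLOCK were added after their values were seen. Alternatives are given in the closing section. The number of arrays limits the precision.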

Additional observations from a re-analysis of the deposited data

Results flagged for a closer look

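The results here are those in which the change of the MYCN line from time 0 to time 96 differed from the change between the mock arrays by a test of the difference itself (limma, adjusted p under 0.05). It called 358 genes. Among the genes named for their size, the difference was 5.09 for MYCN, 4.71 for DDN, 3.92 for PRKCD, 3.44 for ABCA17P, 3.07 for HPDL and 3.04 for SPHK1. It was 2.78 for SLC7A5, 2.46 for SLC6A15, 2.41 for BHLHE41, 1.82 for POLR3G, 1.69 for PER2 and 1.56 for SLC7A2. Negative differences were -5.72 for TAC1, -4.96 for IGFBP5, -4.66 for CFAP95, -4.65 for MFAP4, -4.58 for TM7SF2, -4.51 for C1S, -4.22 for DCN, -3.92 for GASK1B and -3.46 for CBLN2.

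PRKCD, protein kinase C delta, read 35.3, 29.7 and 49.7 at time 0 and 54.0, 68.0 and 72.2 at time 96, and HPDL read 37.5, 34.5 and 36.3 and then 56.2, 51.8 and 98.3. Their mock arrays of time 96 read 4.5 and 2.4, under the filter level of 12.8, and no second mock array of that time exists. The difference was not called for DDN (2.23) and HPDL (1.22) after 16 was added to each intensity. Without replicate 2 of time 96 the calls of C1S (-4.02), CBLN2 (-3.27), MFAP4 (-4.24), SPHK1 (2.91) and TAC1 (-5.27) ended. Without replicate 2 of time 0 those of C1S (-4.54), CBLN2 (-3.49) and CFAP95 (-4.61) ended, as did that of C1S without replicate 1 of time 0 (-4.30) and that of CBLN2 without replicate 3 of time 0 (-3.29) or replicate 1 of time 96 (-3.40). With equal array medians the calls of SPHK1 (3.08), SLC7A5 (2.82), POLR3G (1.86), SLC7A2 (1.6) and C1S (-4.47) ended. With averaged probe sets the difference was -0.24 for BHLHE41, the sign turned, and it was not called for SLC6A15 (2.09), POLR3G (0.74), SLC7A2 (0.85), IGFBP5 (-2.95) and CFAP95 (-0.79). Without _s_at and _x_at probe sets it was -1.12 for MYCN, and C1S and CBLN2 were not called without the filter on dim genes, nor C1S and TAC1 with eBayes without a trend.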

How the results depend on the processing

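For time 96 against time 0, the 2779 calls became 1567 with equal array medians (579 higher, 988 lower) and 1844 without _s_at and _x_at probe sets (751 higher). In a fit to the 6 arrays alone, which takes no spread from the other times, they became 1866 (776 higher, 1090 lower). Leaving out a replicate number or single array gave 787 to 2794 calls, 362 to 1253 higher and 425 to 1614 lower. The main fit did not pair arrays by replicate number, since same-numbered deviations at times 0 and 96 correlated at 0.216, -0.0248 and 0.122. Those correlations cover times 0 and 96 alone and cannot show that replicate numbers share nothing. At every time of the MYCN line bioD read higher on replicate 3 (2322 to 2558) than on replicates 1 and 2 (1544 to 1941). With a replicate block 3922 genes were called, and with the bioD group as a block 3791. Both counts exceeded 2779, so the main fit leaves out a difference between replicate numbers. The difference from mock gave 358 calls, 89 with equal array medians, 188 when probe sets were averaged, 171 without _s_at and _x_at probe sets and 202 to 570 without single arrays. Time 96 against 48 gave 2 calls, 1 with a filter at the 60th percentile, the mean of all probe sets or no _s_at and _x_at probe sets, 0 with an offset of 16, 5 with the replicate block, 6 with the bioD block and 0 to 5 without arrays. Time 192 against 96 gave 1 call, 0 with equal array medians or without _s_at and _x_at probe sets, 2 with an offset of 16, the mean of all probe sets or eBayes without trend, 16 with the replicate block, 11 with the bioD block and 0 to 10 without arrays. Directions reversed for CCNE1 (-0.32), MMP2 (0.026), PSMA5 (-0.051) and PSMD4 (0.34) with averaged probe sets, and for MYCN (-0.57), NDUFA2 (0.14), PAICS (-0.029) and PSMA2 (-0.16) without _s_at and _x_at probe sets, which puts other probe sets in their place. Of 210 named genes, 83 kept their call under every alternative that gave them a value (50 of these had one under all 21), 99 were not called without replicate 2, and 48 were not called without some single array. The cause of these moves was not tested. Of 46 list medians, 3 changed sign under a scaling alternative and 16 under any. Signals near background limit the precision of the largest falls and of some of the largest rises.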

Other observations

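Some genes called in the MYCN line changed at least as much, and in the same direction, between the single mock arrays. TRPA1, an ion channel that senses irritants, read 524, 579 and 595 at time 0 and 118, 126 and 255 at time 96, while mock read 6.2 and 0.7. C3orf70 read 100.2, 110.3 and 142.5 and then 36.5, 37.9 and 56.8, with 12.7 and 4.2 in mock, and CMKLR1, the chemerin receptor, 218.5, 297.5 and 188 and then 99.4, 72.6 and 103, with 9.5 and 2.7 in mock. The mock signals of these 3 genes were all under 12.8, where ratios scatter widely. RGS10, a regulator of G protein signalling, rose from 99.6, 108 and 77.0 to 157, 164 and 155, with 48.0 and 83.8 in mock. ERF, a repressor of the ETS family, read 185, 190.3 and 81.9 and then 309, 283 and 203, with 87.4 and 186 in mock.

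Most called genes lay outside the lists: 2411 of the 2779, and 535 of the 621 called at least 2-fold.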
